A study of Homo sapiens with 6 samples.

Results

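The SR, hnRNP and SF3 splicing factors are the proteins that choose and commit splice sites in pre-mRNA. The set was taken by name: every protein-coding gene whose symbol begins with SRSF, HNRNP, SF3A or SF3B followed by a letter or a number, plus U2AF2. It held 48 of the 19884 protein-coding genes in the count tables, namely 12 SRSF genes, 26 HNRNP genes, 9 SF3A and SF3B genes and U2AF2. Their mRNA was measured by polyA RNA sequencing in A375SM, a cell line with high metastatic capacity obtained from the human melanoma line A375. The shPRAME cells expressed a short hairpin RNA against PRAME, an antigen normally restricted to testis and frequent in melanoma. The shCtrl cells expressed a control hairpin. Each group had 3 libraries, both groups have the genotype label WT, and all 6 libraries share a batch label. The labels describe 1 cell line, give neither the hairpin sequences nor how many hairpins were used, and do not say whether the libraries came from separate transductions. P-values therefore rest on the variation among these libraries, and that may be technical.

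SR proteins carry RNA recognition motifs and a tail rich in arginine and serine. They bind exonic sequences and recruit the splicing machinery, and kinases control them by phosphorylating the tail. hnRNP proteins coat nascent transcripts and often block the sites that SR proteins promote, so that the balance of both families sets exon inclusion. SF3A and SF3B are subcomplexes of the U2 small nuclear ribonucleoprotein (snRNP), which binds the branch point, and U2AF2 reads the polypyrimidine tract beside it. Many of these genes control their own mRNA through poison exons, whose inclusion sends the transcript to nonsense-mediated decay.

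The targeted gene was checked first. PRAME mRNA stood at 57.7, 57.8 and 53.8 CPM in the shPRAME libraries, against 166, 164 and 165 CPM in the shCtrl libraries. The groups did not overlap, and shPRAME kept 34.2% of the shCtrl level (log2 fold change -1.55, SE 0.0314, adjusted p = 4.85e-17, edgeR quasi-likelihood test with Benjamini-Hochberg adjustment over all tested genes, as for every adjusted p below). CPM are counts per 1000000 counts, with library sizes corrected by TMM for differences in library composition. Libraries held 30842788 to 33854545 counts in shPRAME and 31525186 to 34107332 in shCtrl. Ribosomal RNA took 2.53% to 3.64% of counts in shPRAME and 5.32% to 5.67% in shCtrl. Its part in the results was not tested beyond a fit without it, in which 1 member gained a call (HNRNPF) and none lost one. Of 9 melanoma markers 5 were tested, and the list summed to 488.1 to 491.2 CPM in shPRAME and 586.0 to 603.5 CPM in shCtrl. The list includes PRAME itself, and without it the other 8 genes summed to 432.8 to 434.3 CPM in shPRAME and 421.1 to 437.2 CPM in shCtrl. Of these, S100A1 rose (91.7 ± 0.795 CPM in shPRAME, against 65.9 ± 1.63 CPM in shCtrl, adjusted p = 1.96e-10) and S100B fell (28.2 ± 1.26 CPM in shPRAME, against 54.0 ± 0.629 CPM in shCtrl, adjusted p = 9.43e-13). SOX10, the transcription factor of the melanocyte lineage, stood at 275 ± 1.48 CPM in shPRAME, against 266 ± 7.95 CPM in shCtrl (n = 3 each, as for every mean ± SD below). MITF was also present and fell (37.7 ± 0.740 CPM in shPRAME, against 44.6 ± 1.38 CPM in shCtrl, adjusted p = 2.05e-05). The pigment cell genes TYR and MLANA had no count in shPRAME and 0 and 1 counts in shCtrl. Of the markers of other cell types, 7 of 9 fibroblast genes were tested, with a summed level of 88.1 to 95.3 CPM in shPRAME and 112.5 to 116.5 CPM in shCtrl. The leukocyte list summed to 72.4 to 74.3 CPM in shPRAME and 43.1 to 45.4 CPM in shCtrl, almost all of it from CD68, with CD3E at 0 in all libraries. CD68 rose (70.7 ± 0.767 CPM in shPRAME, against 43.9 ± 1.16 CPM in shCtrl, adjusted p = 5.51e-12). PTPRC (36, 29 and 27 counts in shPRAME and 0 in shCtrl) also passed as higher, at low counts. LYZ did as well (44, 39 and 48 counts in shPRAME, against 4, 2 and 1 in shCtrl). The fibroblast gene COL1A2 had 704 to 735 counts in shPRAME and none in shCtrl, and DCN was also at 0 in shCtrl, while PDGFRB (17.4 ± 1.32 CPM in shPRAME, against 64.3 ± 1.86 CPM in shCtrl, adjusted p = 9.67e-16) and FAP (at 58.5% of the shCtrl level, log2 fold change -0.77, adjusted p = 1.72e-11) of the same list fell. LUM (9.89 CPM in shPRAME, against 0.0102 CPM in shCtrl) and PDGFRA (12.3 CPM in shPRAME, against 3.72 CPM in shCtrl) passed as higher. At low levels, COL3A1 (2.58 CPM in shPRAME, against 0.0305 CPM in shCtrl) and COL1A1 (0.493 CPM in shPRAME, against 0.112 CPM in shCtrl) did too. The lower sum of the list in shPRAME came from PDGFRB and FAP, its most abundant genes in shCtrl. In all, 15 genes had at least 100 counts in every shPRAME library and 0 in shCtrl, 5 genes had the reverse, and no member was among them. The keratinocyte list summed to 23.3 to 24.4 CPM in shPRAME and 27.7 to 29.6 CPM in shCtrl, with KRT5 and KRT1 at 0. The endothelial list summed to 0.544 to 0.811 CPM in shPRAME and 0.260 to 0.917 CPM in shCtrl, with CDH5 and CLDN5 at 0. The part of these markers in the results below was not tested.

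Most splicing factor genes differed between the groups, and nearly all of them by little. Of the 48 members 43 had enough counts to be tested. At an adjusted p under 0.05, 18 rose and 19 fell in shPRAME and 6 did not pass, which is 86.0% passing, where 74.4% of all 15954 tested genes passed (37.7% higher and 36.8% lower). For 39 of the 43 (90.7%) every shPRAME library lay on the same side of every shCtrl library, as it did for 76.5% of all tested genes. None of the 43 passed with a change of at least 2-fold, where 18.6% of all tested genes did. A change of at least 1.5-fold was reached by 1 member, SRSF8, or 2.33%, against 32.6% of all tested genes. To compare genes of like level, the same count was made at a mean of 20 CPM or more. It gave 1 of 41 members, or 2.44%, and 18.7% of 7565 genes. At that level 85.4% of the members passed the test, close to the 83.1% of all such genes, and 37 of 41 members and 6401 of 7565 genes did not overlap between the groups. Tested against a minimum fold of 1.2, 5 members were higher and 6 lower, where 48.4% of all tested genes passed. The 5 were SRSF8, SRSF6, HNRNPDL, HNRNPD and HNRNPA1, and the 6 were SRSF4, SF3B1, SF3A3, HNRNPC, HNRNPH2 and SRSF11. The median log2 fold change of the 43 was -0.02, against 0.01 over all tested genes, and the sign of the members' median turned, to 0.03, when counts were scaled to the library total alone. The libraries of a group lay close together: the coefficient of variation of a member had a median of 1.62% in shPRAME and 2.05% in shCtrl. In RNA from whole cultures, fewer cells that express a gene and less RNA per cell cannot be told apart.

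**Figure D1:**
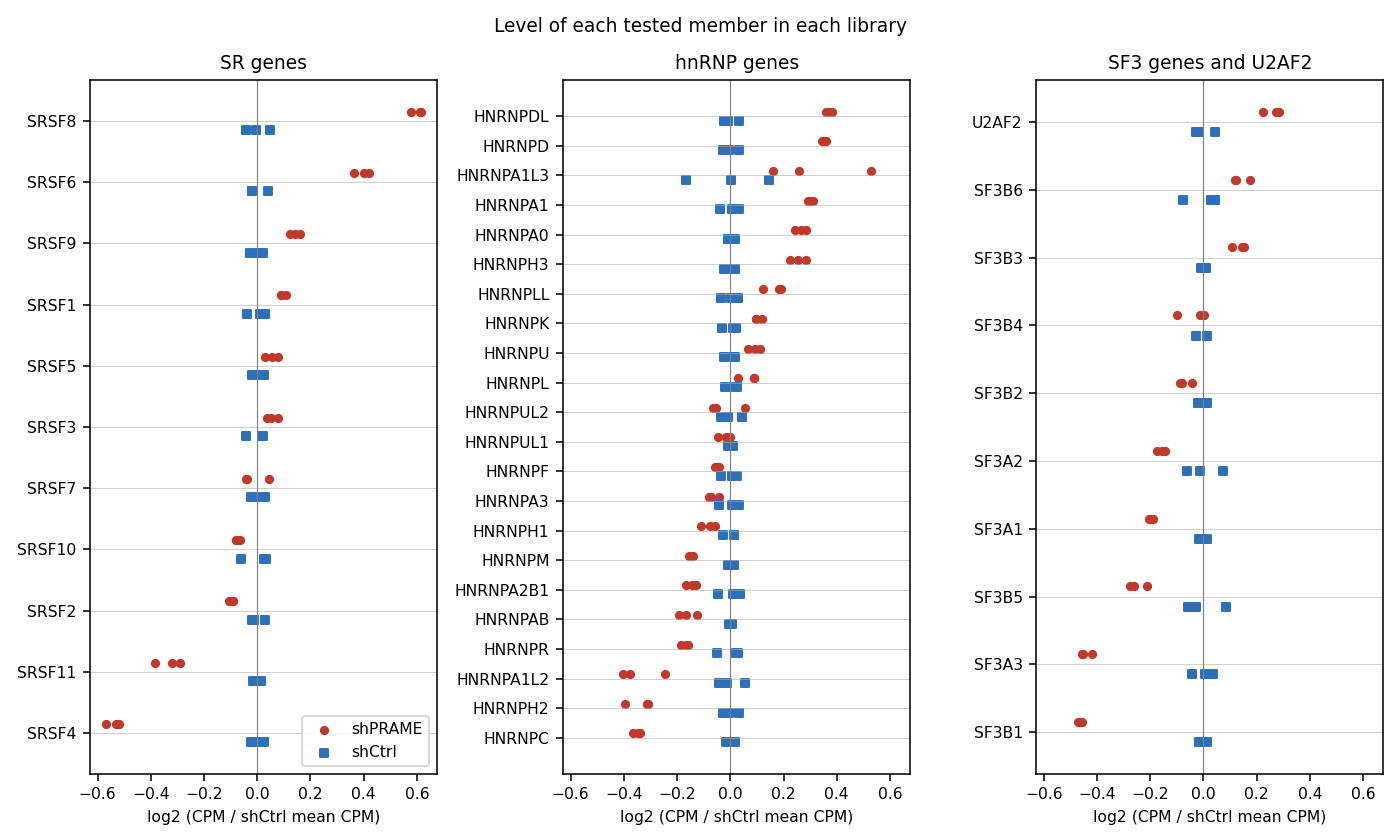
Level of each of the 43 tested splicing factor genes in each library, as log2 of CPM over the shCtrl mean, with shPRAME as circles above shCtrl as squares, in panels for SRSF genes, HNRNP genes, and SF3 genes with U2AF2. SRSF8 lies furthest to the right and SRSF4 furthest to the left, and for most genes the 3 circles sit within a narrow band clear of the squares.

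The 5 members that were not tested were near silent in these cells. HNRNPCL1, HNRNPCL2, HNRNPCL3 and HNRNPCL4, intronless relatives of HNRNPC, had 0 to 2 counts in any library. SRSF12, an SR protein gene known chiefly from brain and testis, had 0.160, 0.0870 and 0.116 CPM in the shPRAME libraries, against 0, 0.0612 and 0.0324 CPM in the shCtrl libraries, values at the level of a few counts. Before the TMM correction, 3 counts equal 0.0886 to 0.0973 CPM in a shPRAME library and 0.0880 to 0.0952 CPM in a shCtrl library.

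Levels of different genes were compared per length, as TPM, which are transcripts per 1000000, computed from the longest annotated GENCODE transcript. This understates a gene whose main transcript is shorter than its longest one. HNRNPA1, a shuttling repressor of splicing, was the most abundant member, at 1366 ± 7.38 TPM in shPRAME, against 1118 ± 20.9 TPM in shCtrl. Its paralogue HNRNPA2B1 stood at 808 ± 13.4 TPM in shPRAME, against 901 ± 18.9 TPM in shCtrl. HNRNPK, which binds cytosine-rich RNA, stood at 874 ± 4.97 TPM in shPRAME, against 819 ± 9.61 TPM in shCtrl, so that HNRNPK came next after HNRNPA1 in shPRAME and HNRNPA2B1 did in shCtrl. Among SR genes SRSF1, the founding member of the family, was highest, at 647 ± 5.62 TPM in shPRAME, against 611 ± 9.59 TPM in shCtrl. SF3B6, the p14 subunit that touches the branch point, led SF3B at 352 ± 6.39 TPM in shPRAME, against 323 ± 12.1 TPM in shCtrl, and SF3A3 led SF3A at 141 ± 1.53 TPM in shPRAME, against 193 ± 3.79 TPM in shCtrl. The lowest of the 42 tested members with a length was HNRNPA1L2, at 23.8 ± 1.33 TPM in shPRAME, against 30.4 ± 1.26 TPM in shCtrl. All 48 genes together took 1.56% to 1.60% of counts in the shPRAME libraries and 1.52% to 1.54% in the shCtrl libraries.

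**Figure D2:**
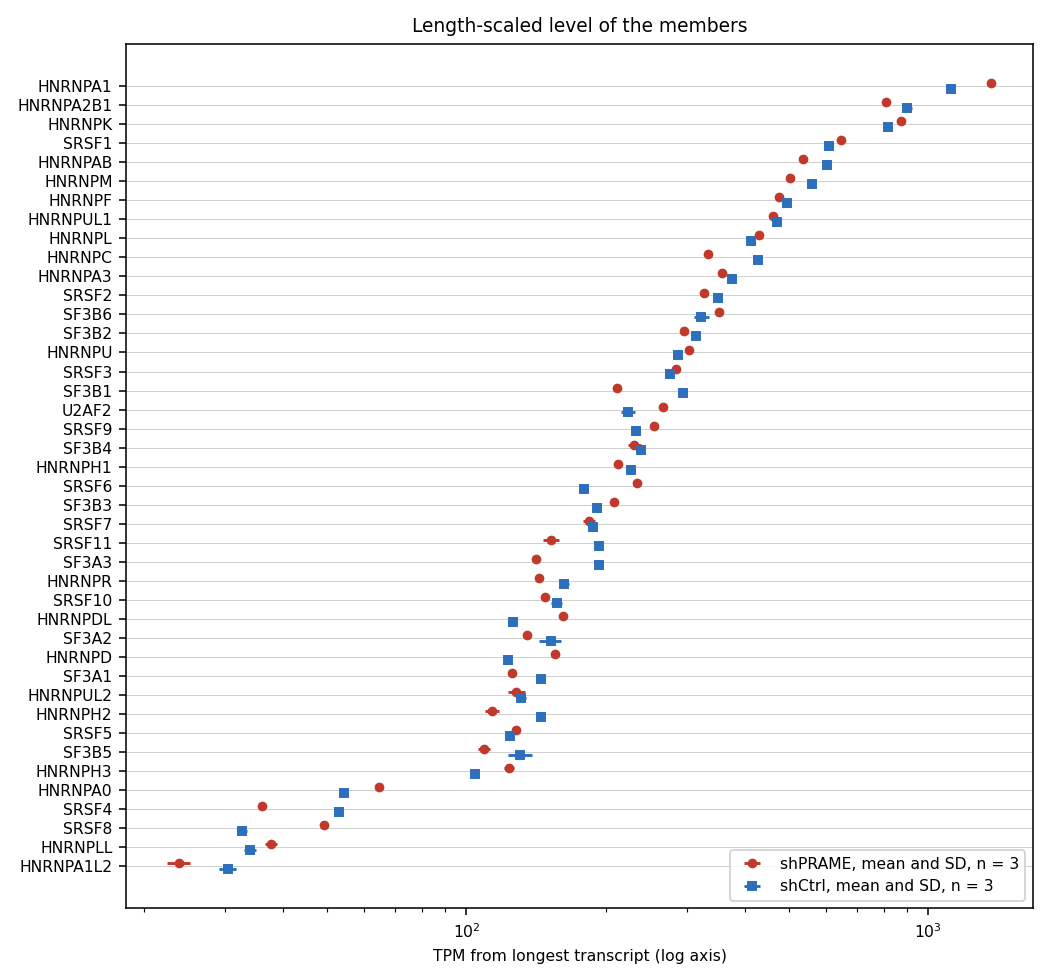
TPM of the 42 tested members with a transcript length, on a log axis, with shPRAME as circles above shCtrl as squares (mean and SD, n = 3 each). The genes span from HNRNPA1 at 1366 TPM in shPRAME and 1118 TPM in shCtrl down to HNRNPA1L2 at 23.8 TPM in shPRAME and 30.4 TPM in shCtrl, and the circle and square of a gene lie close together on this range.

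Among the SR genes 5 rose, 4 fell and 2 did not pass. Their summed level was 2609 ± 9.05 CPM in shPRAME and 2562 ± 45.0 CPM in shCtrl, and the libraries overlapped, with 2599 CPM in shPRAME replicate 1 and 2604 CPM in shCtrl replicate 3. Single members moved in opposite directions. SRSF8, an intronless copy derived from SRSF2 (chromosome 11, 95066877 to 95071225, GRCh38), had 63.4, 63.6 and 62.0 CPM in the shPRAME libraries, against 40.3, 41.4 and 42.9 CPM in the shCtrl libraries. All shPRAME libraries were higher, by 1.52-fold (log2 fold change 0.60, SE 0.0352, adjusted p = 6.63e-11). SRSF6, which regulates alternative exons of MAPT and other transcripts (chromosome 20, 43457896 to 43464243), had 316, 323 and 328 CPM in the shPRAME libraries, against 242, 242 and 252 CPM in the shCtrl libraries. It rose 1.31-fold without overlap (log2 fold change 0.39, SE 0.0251, adjusted p = 2.15e-10).

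The opposite change was seen for SRSF4, the longest classical SR protein (chromosome 1, 29147743 to 29181900). It had 91.4, 94.7 and 93.8 CPM in the shPRAME libraries, against 135, 134 and 138 CPM in the shCtrl libraries. SRSF4 fell to 68.8% of the shCtrl level (log2 fold change -0.54, SE 0.0278, adjusted p = 1.19e-11), the lowest value in the set. SRSF11, an SR-related protein that interacts with U2AF2 (chromosome 1, 70205696 to 70253052), had 199.6, 196 and 187 CPM in the shPRAME libraries, against 242, 246 and 245 CPM in the shCtrl libraries. It fell to 79.4% of the shCtrl level (log2 fold change -0.33, SE 0.0267, adjusted p = 4.84e-09), and its shPRAME libraries were more spread than its shCtrl libraries.

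The sequences before the start sites of the genes at either end of this range are shown for comparison, 5′ to 3′ on the strand of the gene, from the RefSeq promoter table (GRCh38.p14). Capitals mark matches on either strand to 5 short motifs. The E-box, CACGTG, is the element of MYC and related factors. The CCAAT box, searched by the letters of its name, is the element of NF-Y. The GC box, GGGCGG, is the element of SP1 and its relatives. The ETS core was searched as CCGGAAG, after the family of factors that read it. The TATA box was searched as TATAAA, the element of the TATA-binding protein.
SRSF8 promoter, chr11:95066627-95066876, plus strand: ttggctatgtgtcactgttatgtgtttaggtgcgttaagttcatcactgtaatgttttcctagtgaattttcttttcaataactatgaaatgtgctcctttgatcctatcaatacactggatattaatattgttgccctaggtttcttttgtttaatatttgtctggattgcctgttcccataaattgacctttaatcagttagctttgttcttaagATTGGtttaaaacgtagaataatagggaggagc
SRSF6 promoter, chr20:43457646-43457895, plus strand: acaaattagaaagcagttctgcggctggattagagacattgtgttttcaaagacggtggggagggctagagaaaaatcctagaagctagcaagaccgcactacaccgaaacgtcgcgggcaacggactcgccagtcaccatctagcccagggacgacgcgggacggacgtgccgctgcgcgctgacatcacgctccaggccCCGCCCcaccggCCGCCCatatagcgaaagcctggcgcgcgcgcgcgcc
SRSF4 promoter, chr1:29181901-29182150, minus strand: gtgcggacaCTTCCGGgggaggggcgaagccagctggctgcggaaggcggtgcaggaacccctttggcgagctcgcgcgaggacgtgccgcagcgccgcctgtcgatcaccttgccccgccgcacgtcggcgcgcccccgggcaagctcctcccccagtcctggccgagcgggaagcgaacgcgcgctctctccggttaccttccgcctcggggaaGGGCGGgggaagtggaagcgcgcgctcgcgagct
The SRSF8 window held 1 CCAAT box and no GC box, that of SRSF6 held 2 GC boxes, and that of SRSF4 held 1 GC box and 1 ETS core. A match is a description of the letters in the window and says nothing about a factor.

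The remaining SR genes changed by less than 1.2-fold. SRSF1, a regulator of splice site choice and an oncogene in several tissues, had 638, 647 and 638 CPM in the shPRAME libraries, against 584, 604 and 612 CPM in the shCtrl libraries. It rose by a small amount without overlap (log2 fold change 0.10, SE 0.0234, adjusted p = 0.00145). SRSF9 also rose (138 ± 1.80 CPM in shPRAME, against 125 ± 2.01 CPM in shCtrl, adjusted p = 0.000122), but the gene GATC overlaps its interval at 34.5% of its level and fell, and without the strand setting of the counting the reads of the 2 cannot be assigned with certainty. SRSF3, the smallest SR protein, passed narrowly (382 ± 5.46 CPM in shPRAME, against 367 ± 8.87 CPM in shCtrl, adjusted p = 0.0483). Its adjusted p was 0.0822 without shPRAME replicate 3, 0.203 without shCtrl replicate 1 and 0.0633 without shCtrl replicate 2. SRSF2, which recognises both purine-rich and cytosine-rich exonic sequences, fell slightly (299 ± 1.72 CPM in shPRAME, against 319 ± 5.86 CPM in shCtrl, adjusted p = 0.00131). SRSF10, which is dephosphorylated upon heat shock and then represses splicing, also fell (186 ± 1.05 CPM in shPRAME, against 196 ± 7.01 CPM in shCtrl, adjusted p = 0.0216), a call that leaving out shPRAME replicate 2 or 3 or shCtrl replicate 2 or 3 removed, with adjusted p from 0.0661 to 0.0834. SRSF5 and SRSF7 did not pass. SRSF5 had 124, 122 and 126 CPM in the shPRAME libraries, against 117, 119 and 121 CPM in the shCtrl libraries, without overlap (adjusted p = 0.0745; 0.0442 without shPRAME replicate 2 and 0.0417 without shCtrl replicate 3). SRSF7 had 164, 164 and 174 CPM in the shPRAME libraries, against 168, 166 and 172 CPM in the shCtrl libraries, with overlap (adjusted p = 0.722).

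Among 22 tested HNRNP genes 10 rose, 9 fell and 3 did not pass, with log2 fold changes from -0.35 to 0.37. Their summed level was 10504 ± 89.0 CPM in shPRAME and 10385 ± 183.7 CPM in shCtrl, with overlapping libraries. Several subfamilies of close relatives split, with a member on each side.

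In the A and B subfamily, whose members bind UAG-containing RNA, HNRNPA1 rose and HNRNPA2B1 fell. HNRNPA1 (chromosome 12, 54280726 to 54287087) had 1785, 1779 and 1801 CPM in the shPRAME libraries, against 1412, 1483 and 1459 CPM in the shCtrl libraries. All shPRAME libraries were higher, by 1.23-fold (log2 fold change 0.30, SE 0.0243, adjusted p = 5.33e-09). HNRNPA2B1, also a reader of methylated RNA and of exosomal sorting signals (chromosome 7, 26189927 to 26200746), had 1633, 1591 and 1614 CPM in the shPRAME libraries, against 1728, 1795 and 1829 CPM in the shCtrl libraries. It was lower in every shPRAME library, at 90.4% of the shCtrl level (log2 fold change -0.15, SE 0.0255, adjusted p = 6.29e-05). HNRNPA0, which binds AU-rich elements of mRNAs, had 179.7, 177 and 182 CPM in the shPRAME libraries, against 149, 151 and 149 CPM in the shCtrl libraries, and rose without overlap (log2 fold change 0.26, SE 0.0250, adjusted p = 4.34e-08). HNRNPA3 fell slightly (645 ± 8.50 CPM in shPRAME, against 675 ± 17.7 CPM in shCtrl, adjusted p = 0.0238), and without shPRAME replicate 1 or 2 or shCtrl replicate 2 or 3 the adjusted p was 0.0575 to 0.129. Of the summed TPM of these 4 genes, HNRNPA1 made up 52.6% ± 0.199 in shPRAME and 45.6% ± 0.423 in shCtrl. The share of HNRNPA2B1 was 31.1% ± 0.271 in shPRAME and 36.8% ± 0.323 in shCtrl.

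HNRNPA1 has processed copies, and 2 of them count as members by name. HNRNPA1L2 (chromosome 13) had 10.1, 9.95 and 11.1 CPM in the shPRAME libraries, against 13.6, 12.8 and 13.0 CPM in the shCtrl libraries, and fell (log2 fold change -0.34, SE 0.0706, adjusted p = 0.000343). HNRNPA1L3 (chromosome 16) had 4.42, 4.73 and 5.71 CPM in the shPRAME libraries, against 3.96, 3.52 and 4.38 CPM in the shCtrl libraries. It passed as higher (log2 fold change 0.33, SE 0.125, adjusted p = 0.0256), but DESeq2 gave an adjusted p of 0.0980, and so did not call it. Leaving out shPRAME replicate 3, shCtrl replicate 1 or shCtrl replicate 2 gave 0.143, 0.0595 and 0.128. Reads of these copies and of HNRNPA1 may be exchanged, so both copies are uncertain. The 4 copies in the tables drew 0.896% to 1.05% of the summed counts of HNRNPA1 and its copies in shPRAME and 1.14% to 1.32% in shCtrl.

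HNRNPD and HNRNPDL rose together. HNRNPD, or AUF1, speeds the decay of mRNAs with AU-rich elements (chromosome 4, 82352498 to 82373991). It had 227, 226 and 228 CPM in the shPRAME libraries, against 175, 177 and 182 CPM in the shCtrl libraries, a 1.28-fold difference (log2 fold change 0.35, SE 0.0245, adjusted p = 7.03e-10). Its paralogue HNRNPDL lies 48572 bases away on the same chromosome (chromosome 4, 82422564 to 82430462). HNRNPDL had 211, 213 and 214 CPM in the shPRAME libraries, against 162, 164 and 169 CPM in the shCtrl libraries (log2 fold change 0.37, SE 0.0250, adjusted p = 4.59e-10). Both genes therefore separated the groups fully and by almost the same factor. HNRNPAB, the third relative (chromosome 5), had 299, 304 and 313 CPM in the shPRAME libraries, against 340.1, 341 and 342 CPM in the shCtrl libraries, and went the other way (log2 fold change -0.16, SE 0.0235, adjusted p = 8.81e-06). Its share of the summed TPM of the 3 genes was 62.7% ± 0.408 in shPRAME and 70.8% ± 0.359 in shCtrl.

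The H and F subfamily binds runs of guanines. HNRNPH3 (chromosome 10) had 135, 129 and 132 CPM in the shPRAME libraries, against 109, 111 and 112 CPM in the shCtrl libraries, and rose (log2 fold change 0.26, SE 0.0275, adjusted p = 2.21e-07). The gene RUFY2 overlaps it at 20.9% of its level and fell. HNRNPH2 (chromosome X) had 81.9, 77.2 and 81.7 CPM in the shPRAME libraries, against 99.7, 101 and 104 CPM in the shCtrl libraries, and fell to 79.0% of the shCtrl level (log2 fold change -0.34, SE 0.0316, adjusted p = 3.31e-08). HNRNPH1 fell by far less (377 ± 6.74 CPM in shPRAME, against 399 ± 6.64 CPM in shCtrl, log2 fold change -0.08, adjusted p = 0.00494). HNRNPF did not pass, with 418, 414 and 416 CPM in the shPRAME libraries, against 420.0, 432 and 438 CPM in the shCtrl libraries (adjusted p = 0.061). Although its libraries did not overlap, it passed only in some fits, among them one without shCtrl replicate 1 (adjusted p = 0.0105). Of the summed TPM of the 4 genes HNRNPH2 took 12.3% ± 0.309 in shPRAME and 14.9% ± 0.115 in shCtrl, and HNRNPH3 13.4% ± 0.201 in shPRAME and 10.8% ± 0.0536 in shCtrl.

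**Figure D3:**
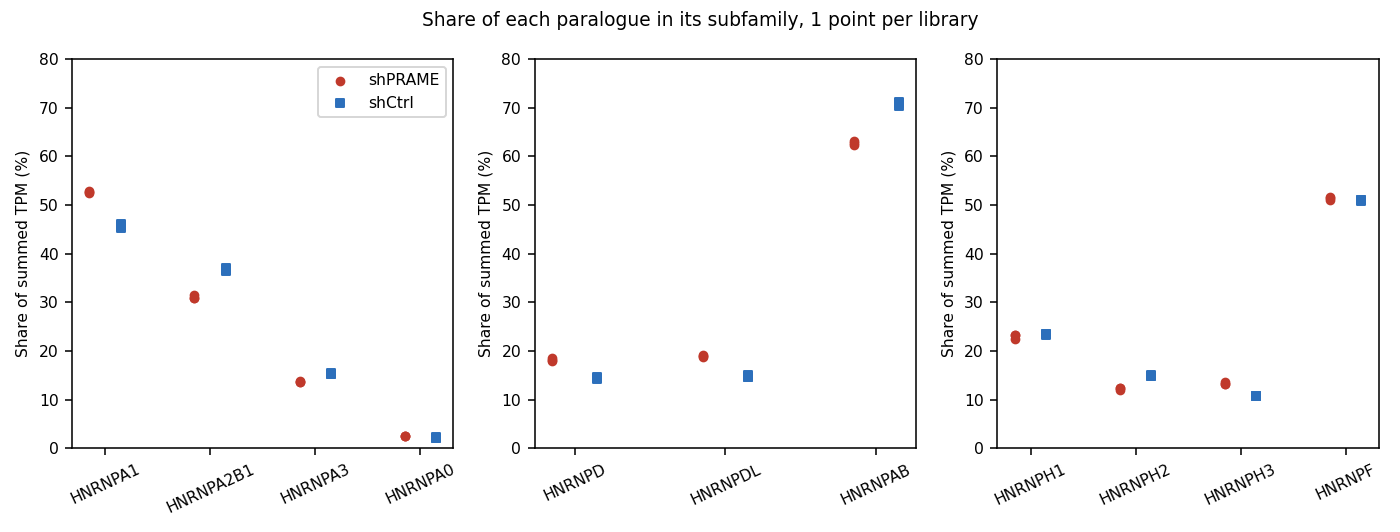
Share of each paralogue in the summed TPM of its hnRNP subfamily (percent, 1 point per library), with shPRAME as circles left of shCtrl as squares. HNRNPA1, HNRNPD, HNRNPDL and HNRNPH3 hold larger shares in shPRAME, and HNRNPA2B1, HNRNPAB and HNRNPH2 smaller ones, with no overlap between the libraries of the groups for these genes.

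HNRNPC showed the largest fall of the family. It coats nascent transcripts as a tetramer and binds uridine tracts, where it keeps U2AF2 off cryptic exons (chromosome 14, 21209147 to 21269442). It had 470.4, 477 and 479 CPM in the shPRAME libraries, against 599, 606 and 614 CPM in the shCtrl libraries. All shPRAME libraries lay below all shCtrl libraries, at 78.4% of the shCtrl level (log2 fold change -0.35, SE 0.0220, adjusted p = 1.7e-10). The promoters of HNRNPC and HNRNPD, opposite in direction, are shown with the same marking.
HNRNPC promoter, chr14:21269443-21269692, minus strand: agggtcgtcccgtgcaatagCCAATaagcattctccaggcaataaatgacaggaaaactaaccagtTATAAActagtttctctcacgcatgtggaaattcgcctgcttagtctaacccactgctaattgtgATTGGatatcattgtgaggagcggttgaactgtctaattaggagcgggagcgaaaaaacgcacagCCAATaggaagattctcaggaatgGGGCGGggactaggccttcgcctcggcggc
HNRNPD promoter, chr4:82373992-82374241, minus strand: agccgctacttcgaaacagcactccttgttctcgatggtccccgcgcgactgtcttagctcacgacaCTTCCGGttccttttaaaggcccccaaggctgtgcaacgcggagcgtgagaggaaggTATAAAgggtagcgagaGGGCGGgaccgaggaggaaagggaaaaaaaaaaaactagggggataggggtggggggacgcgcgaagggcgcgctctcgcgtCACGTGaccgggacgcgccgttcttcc
The HNRNPC window held 3 CCAAT boxes, 1 GC box and 1 TATA box, and that of HNRNPD 1 E-box, 1 GC box, 1 ETS core and 1 TATA box.

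The other HNRNP genes moved by less than 1.2-fold. HNRNPK, HNRNPU, which ties RNA to chromatin, HNRNPL, which binds CA repeats, and its paralogue HNRNPLL rose, with log2 fold changes of 0.10, 0.09, 0.07 and 0.16. The HNRNPL call was not kept without shPRAME replicate 2 (adjusted p = 0.0510). HNRNPM (-0.15) and HNRNPR (-0.17) fell. HNRNPUL1 had 510.1, 521 and 527 CPM in the shPRAME libraries, against 524, 525 and 531 CPM in the shCtrl libraries, and did not pass, with overlapping groups (adjusted p = 0.423). HNRNPUL2 had 207, 208 and 225 CPM in the shPRAME libraries, against 215, 211 and 223 CPM in the shCtrl libraries, and overlapped as well (adjusted p = 0.587). A readthrough transcript, HNRNPUL2-BSCL2, shares its sequence and was counted at 48.9% of its level, so HNRNPUL2 is uncertain.

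The SF3 genes were mostly lower. Of 9 genes 6 fell, 2 rose and 1 did not pass, where 36.8% of all tested genes fell, with a median log2 fold change of -0.16 against 0.01 over all tested genes. Their summed level was 2170 ± 23.2 CPM in shPRAME and 2397 ± 8.02 CPM in shCtrl. The libraries did not overlap, at 2146 to 2192 CPM in shPRAME and 2389 to 2405 CPM in shCtrl. Nearly all of this difference came from SF3B1 (438 CPM in shPRAME, against 604 CPM in shCtrl) and SF3A3 (165 CPM in shPRAME, against 224 CPM in shCtrl). Among the remaining SF3 genes, smaller falls were offset by the rises of SF3B3 and SF3B6, so the sum does not describe the family as a whole. The log2 ratio of these sums was -0.14, and it lay between -0.16 and -0.093 under the other scalings and with the regional shift described below removed. No test was made of the sum, since the members were chosen with results known.

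SF3B1, the scaffold that clamps the branch point and the target of splicing inhibitors, changed most (chromosome 2, 197389784 to 197435093). It had 438, 440.0 and 436 CPM in the shPRAME libraries, against 598, 604 and 609.7 CPM in the shCtrl libraries. The shPRAME libraries lay far below the shCtrl libraries, at 72.5% of their level (log2 fold change -0.46, SE 0.0215, adjusted p = 2.95e-12). SF3A3, the SF3A subunit SAP61 (chromosome 1, 37956975 to 37990022), had 164, 163 and 168 CPM in the shPRAME libraries, against 218, 225 and 229.7 CPM in the shCtrl libraries. It fell to 73.6% of the shCtrl level (log2 fold change -0.44, SE 0.0264, adjusted p = 9.1e-11). Both promoters are given to the base before the interval of the gene, which leaves 185 bases for SF3B1.
SF3B1 promoter, chr2:197435094-197435278, minus strand: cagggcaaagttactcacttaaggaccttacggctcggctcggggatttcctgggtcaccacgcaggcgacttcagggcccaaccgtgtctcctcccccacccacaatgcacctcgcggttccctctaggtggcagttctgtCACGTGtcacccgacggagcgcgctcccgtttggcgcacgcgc
SF3A3 promoter, chr1:37990023-37990272, minus strand: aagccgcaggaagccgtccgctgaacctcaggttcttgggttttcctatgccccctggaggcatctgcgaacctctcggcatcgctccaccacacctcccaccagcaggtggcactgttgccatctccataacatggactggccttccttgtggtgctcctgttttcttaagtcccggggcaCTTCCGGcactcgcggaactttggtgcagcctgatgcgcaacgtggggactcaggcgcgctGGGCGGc
The SF3B1 window held 1 E-box, and that of SF3A3 held 1 GC box and 1 ETS core.

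All SF3A subunits fell. SF3A1, which contacts the U1 snRNP, had 205 ± 0.955 CPM in shPRAME, against 235 ± 2.59 CPM in shCtrl (log2 fold change -0.20, SE 0.0231, adjusted p = 6.26e-07), and SF3A2, which reaches the branch point helix, 84.3 ± 0.827 CPM in shPRAME, against 94.1 ± 4.45 CPM in shCtrl (log2 fold change -0.16, SE 0.0339, adjusted p = 0.00044). Within SF3B the small subunit gene SF3B5 had 24.6, 23.8 and 23.6 CPM in the shPRAME libraries, against 30.2, 27.4 and 28.0 CPM in the shCtrl libraries, and fell (log2 fold change -0.25, SE 0.0503, adjusted p = 0.000261). SF3B2, which binds SF3B4 (SAP49), fell only slightly (370.3 ± 6.34 CPM in shPRAME, against 389 ± 5.10 CPM in shCtrl, adjusted p = 0.00996), with adjusted p of 0.0555 without shPRAME replicate 1 and 0.0705 without shPRAME replicate 2. SF3B3, a large repeat protein that packs against SF3B1, rose instead (645 ± 10.7 CPM in shPRAME, against 587 ± 4.13 CPM in shCtrl, adjusted p = 3.45e-05). SF3B6 had 84.9, 85.1 and 88.4 CPM in the shPRAME libraries, against 74.3, 80.7 and 79.9 CPM in the shCtrl libraries, and rose as well (log2 fold change 0.14, SE 0.0347, adjusted p = 0.00173). SF3B4 did not pass and its groups overlapped, with 146, 157 and 155 CPM in the shPRAME libraries, against 158, 154 and 158 CPM in the shCtrl libraries (adjusted p = 0.275). Subunits of one complex thus moved in both directions. PHF5A, the SF3B subunit that the naming rule leaves out, is named after its values were seen. It rose (40.2 ± 2.01 CPM in shPRAME, against 28.2 ± 1.25 CPM in shCtrl, adjusted p = 3.65e-08).

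U2AF2, the large U2AF subunit that binds the polypyrimidine tract (chromosome 19, 55655035 to 55674716), had 249.6, 258 and 260.1 CPM in the shPRAME libraries, against 220.0, 211 and 209 CPM in the shCtrl libraries. It was higher in every shPRAME library, at 119.9% of the shCtrl level (log2 fold change 0.26, SE 0.0265, adjusted p = 1.03e-07). Its partner U2AF1, which reads the AG at the end of the intron, is not a member and is uncertain, since it has a near-identical copy, LOC102724594. U2AF1 had 0 counts in each shPRAME library and 1234, 972 and 1233 in the shCtrl libraries. The copy had 2324, 2648 and 2609 counts in shPRAME and 1993, 2210 and 1789 in shCtrl. Added together, the pair stood at 75.6 ± 1.21 CPM in shPRAME and 96.9 ± 1.31 CPM in shCtrl, so that the summed level was lower where that of U2AF2 was higher.

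Gene counts add up all transcripts of a gene, productive or not. GENCODE annotates a transcript class of nonsense-mediated decay for all 11 tested SRSF genes, for 13 of 21 HNRNP genes with an entry, for 3 of 9 SF3 genes and for U2AF2. That is 28 of 42 members, or 66.7%, against 42.6% of 12896 tested protein-coding genes. A retained intron transcript is annotated for 69.0% of the members and 57.0% of those genes. The members also have more annotated transcripts, with a median of 10 against 8. These shares were not matched for that or for level, and were not tested. The counts do not separate these transcripts from the coding ones, and the share of poison exon transcripts was not measured.

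Promoter windows of 250 bases before the start given in the table were matched for 39 of the 43 tested members, and motifs were counted here over all 250 bases, also for SF3B1. An ETS core was found in 12 of them, or 30.8%, against 8.52% of 35116 windows in the whole table. In the same order, members and then all windows, the GC box shares were 66.7% and 42.6%, for the CCAAT box 41.0% and 32.0%, for the E-box 17.9% and 6.34%, and for the TATA box 12.8% and 10.7%. The ETS core was in 4 of 15 members that rose and 5 of 18 that fell, and the E-box in 3 of 15 that rose and 4 of 18 that fell. The whole table includes genes that these cells do not express, and these shares were not tested.

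The direction of many members followed that of the genes around them. For each member the median log2 fold change was taken over up to 10 tested genes on each side along the chromosome, members left out. Across the 43 members this median and the member's own log2 fold change had Pearson's r of 0.628 and Spearman's rho of 0.580. Over all other tested genes Pearson's r was 0.266. Some members share neighbours, such as HNRNPD and HNRNPDL, all points share the same 6 libraries, and the members and the other genes differ in level, so these are descriptions. Of the 37 members that passed, 32 had the sign of their neighbours. The like share over all genes that passed was not counted, so this number has nothing to be set against. SRSF8, at 0.60, lay among genes with a median of 0.57, of which 15 were higher and 1 lower. SF3A3, at -0.44, lay among genes with a median of -0.46, and HNRNPD and HNRNPDL, at 0.35 and 0.37, among genes with a median of 0.38.

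Other members stood apart from their surroundings. SF3B1, at -0.46, lay among genes with a median of -0.03, HNRNPC, at -0.35, among genes with a median of 0.12, and SF3A1, at -0.20, among genes with a median of 0.13. HNRNPA0, at 0.26, lay among genes with a median of -0.24, and U2AF2, at 0.26, among genes with a median of 0.01. A fit in which the median of the neighbours was subtracted gives changes relative to the neighbourhood. The median entered it as a fixed value, so its p-values leave out the spread among the neighbours. Of the 18 members that rose, 8 stayed higher in it, 7 did not pass and 3 became lower. Of the 19 that fell, 9 stayed lower, 6 did not pass and 4 became higher. The 8 were HNRNPA1, HNRNPA0, HNRNPH3, HNRNPLL, SRSF6, SRSF9, SRSF1 and U2AF2. Among the 9, HNRNPC stood at -0.47, SF3B1 at -0.43, SF3A1 at -0.33 and SRSF4 at -0.31. SRSF10, at -0.08 as measured, stood at 0.42 relative to its neighbours, whose median was -0.49. What moved the neighbourhoods was not tested.

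**Figure D4:**
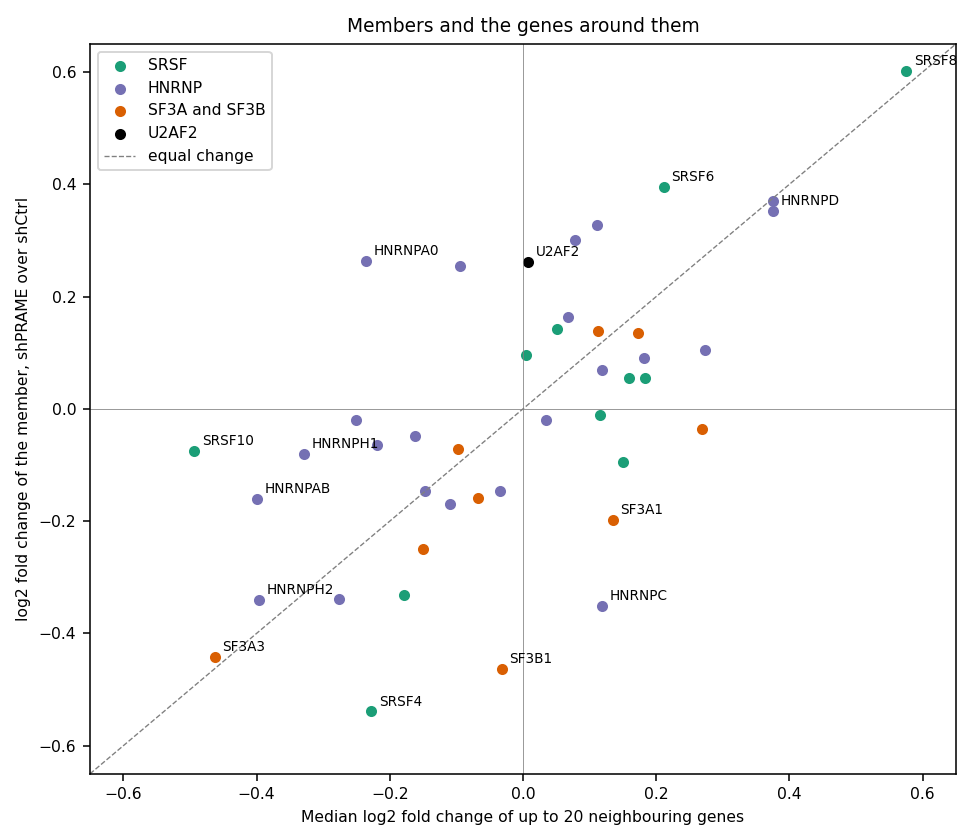
Log2 fold change of each tested member (vertical axis, shPRAME over shCtrl) against the median log2 fold change of up to 10 tested genes on each side of it, members left out (horizontal axis), coloured by family, with a dashed line where both are equal. SRSF8, HNRNPD and SF3A3 lie near the line, while SF3B1 and HNRNPC lie well below it and HNRNPA0 well above it.

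The rest of the splicing machinery was read from 10 lists of 165 genes, of which 153 were tested. In all 63 rose, 62 fell and 28 did not pass, or 81.7% passing, where 74.4% of all tested genes passed, with a median log2 fold change of 0.04. Of tested protein-coding genes 78.1% passed, and of all tested genes at 20 CPM or more 83.1% passed. The lists were not matched for level, so their share is not read as an excess. Scaled to the library total alone, 77 rose and 54 fell. Beside the counts of each list below, the shares over all tested genes were 37.7% higher and 36.8% lower. No list was tested as a set. Of the Sm ring proteins, which form the core of the snRNPs, 6 of 8 rose and none fell (median 0.33). SNRPD1 had 144 ± 1.72 CPM in shPRAME, against 94.0 ± 2.43 CPM in shCtrl (log2 fold change 0.61, SE 0.0282, adjusted p = 2.43e-12), and SNRPE had 123 ± 1.25 CPM in shPRAME, against 90.5 ± 2.51 CPM in shCtrl (adjusted p = 3.37e-10). Of 22 tri-snRNP genes 11 rose and 5 fell (median 0.12). SNU13 (0.36) and LSM4 (0.30) rose, and the cyclophilin PPIH (-0.52) and the helicase SNRNP200 (-0.24) fell (log2 fold changes).

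The partners of SF3 in the U2 snRNP and at the branch point split, 6 higher and 6 lower of 16 (median 0.04), with the uncertain U2AF1 among the lower. SNRPB2, a U2 snRNP protein, had 894, 899 and 906 CPM in the shPRAME libraries, against 381, 389 and 380.0 CPM in the shCtrl libraries. That is a 2.35-fold rise without overlap (log2 fold change 1.23, SE 0.0223, adjusted p = 1.15e-17). DHX15, the helicase that takes the spent spliceosome apart, also rose (412 ± 4.66 CPM in shPRAME, against 247 ± 6.19 CPM in shCtrl, adjusted p = 3.01e-14), and HTATSF1 fell (81.2 ± 3.98 CPM in shPRAME, against 114 ± 2.77 CPM in shCtrl, adjusted p = 9.51e-10). Of 8 genes of the U1 snRNP and its partners 2 rose and 4 fell (median -0.07), with LUC7L (0.35) and SNRPC (0.22) higher and LUC7L2 (-0.31) and PRPF39 (-0.30) lower. Factors of the catalytic stage were lower more often than higher, 11 against 6 of 20 (median -0.15). Over all tested genes 36.8% were lower and 37.7% higher, and the split was not tested. CDC5L (0.47) and DHX8 (0.33) rose, and CDC40 (-0.46) and RBM22 (-0.33) fell.

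Of 12 kinases and nuclear import receptors 4 rose and 7 fell (median -0.10), and 3 changed at least 1.5-fold. TNPO3, an import receptor on this list named after its values were seen, fell only slightly (log2 fold change -0.08, adjusted p = 0.0195). TNPO2, a nuclear import receptor related to TNPO1, had 161 ± 3.08 CPM in shPRAME, against 93.6 ± 3.83 CPM in shCtrl (log2 fold change 0.78, SE 0.0313, adjusted p = 3.72e-13), while TNPO1 fell (369 ± 2.75 CPM in shPRAME, against 465 ± 21.3 CPM in shCtrl, adjusted p = 1.02e-08). SRPK1, the cytoplasmic kinase of SR proteins, rose (119 ± 0.209 CPM in shPRAME, against 90.7 ± 2.74 CPM in shCtrl, adjusted p = 1.8e-09), and DYRK1A, a nuclear kinase, fell (50.5 ± 0.564 CPM in shPRAME, against 88.5 ± 4.06 CPM in shCtrl, adjusted p = 1.6e-12). All 13 SR-related genes passed, 7 higher and 6 lower (median 0.06), where 83.1% of all tested genes at 20 CPM or more passed. SON, a scaffold of nuclear speckles, had 387 ± 3.25 CPM in shPRAME, against 588 ± 2.72 CPM in shCtrl (log2 fold change -0.60, SE 0.0214, adjusted p = 8.3e-14), and SREK1 also fell (-0.48). RNPS1 (0.43) and RBM39 (0.21) rose.

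Of 16 tested hnRNP proteins under other names 8 rose and 6 fell (median 0.05), all by less than 1.5-fold. PCBP1 (0.33) and CIRBP (0.29) rose, and SYNCRIP (-0.21) and PCBP2 (-0.15) fell. Of 15 genes of nonsense-mediated decay and the exon junction complex 5 rose and 6 fell (median 0.04), with RBM8A (0.42) and CASC3 (0.16) higher and UPF3B (-0.68) and SMG1 (-0.21) lower. Of 34 other splicing regulators, not all of them restricted to certain cell types, 23 were tested, 8 rose and 11 fell. At least 2-fold changes were seen for 7, or 30.4%, where 18.6% of all tested genes had them. The 4 of these that fell, NOVA2, CELF5, CELF6 and ESRP1, averaged under 1 CPM over all libraries. NOVA1, ELAVL2 and RBM47 were the 3 that rose. These shares were not matched for level. NOVA1, a neuronal splicing regulator, had 111, 107 and 118 counts in the shPRAME libraries and 0 in each shCtrl library. Its level in shPRAME, 3.36 ± 0.230 CPM, was at least 109-fold higher than 3 counts over the shCtrl group. KHDRBS3 rose (26.1 ± 0.430 CPM in shPRAME, against 13.8 ± 0.208 CPM in shCtrl, adjusted p = 4.46e-11), and QKI (249 ± 5.16 CPM in shPRAME, against 327 ± 18.0 CPM in shCtrl, adjusted p = 8.29e-09) and RBM5 (55.7 ± 0.646 CPM in shPRAME, against 71.1 ± 0.827 CPM in shCtrl, adjusted p = 1.52e-08) fell.

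**Figure D5:**
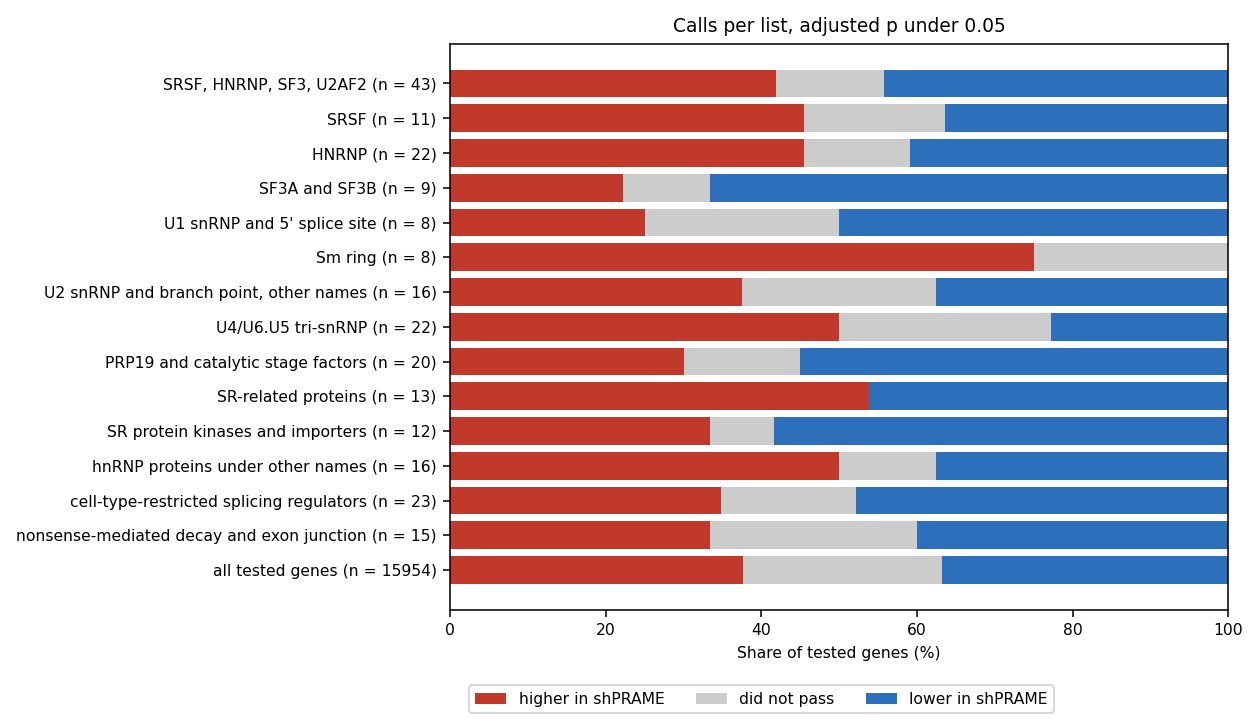
Share of tested genes that were higher, did not pass or were lower in shPRAME (percent), for the splicing factor families, 10 lists of other splicing genes and all tested genes at the foot, with the number tested beside each name. The SF3 genes show 6 of 9 lower and the Sm ring 6 of 8 higher, while the SRSF and HNRNP genes split almost evenly.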

How the data were processed

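RNA of A375SM cells was measured in 3 shPRAME and 3 shCtrl libraries. The authors deposited raw counts, 1 whole number for each NCBI gene identifier and library, per the file headers. The submitters' processing notes list the tools fastp, STAR and Salmon with builds named GRCh38 and hg38. Their versions, the counting program, its annotation and its use of strand: not given in the sources used here. Genes with near-identical copies and overlapping genes are therefore uncertain.

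Rows of a repeated identifier were summed (34 of 40929), and 40789 of 40895 genes matched the RefSeq table (GRCh38.p14), the source of symbols, gene types and coordinates. The main test was edgeR 4.0.16 under R 4.3.3: filterByExpr, TMM scaling, then the 2-sided quasi-likelihood test with group as its only term. P-values were adjusted by Benjamini-Hochberg over 15954 genes and passed under 0.05. SEs were derived from each log2 fold change and its F statistic. For TPM, each gene's length was that of its longest transcript in GENCODE release 29. Floors of 3 counts cover counting error only. Within a group no pair of libraries was alike within counting error. As a mean over genes, with ribosomal RNA kept in, pairs showed 2.46 to 8.29 times the variance it gives. A few abundant genes can raise this mean. Same-numbered libraries did not deviate together (correlations of -0.12 to -0.06), so they were not treated as pairs. DESeq2 1.42.0 and limma 3.58.1 with voom were alternatives. The fits were tested on simulated data.

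The members and lists were chosen with earlier results of these data known. Every member is accounted for. Values by library are given for PRAME, for members among the 8 highest or 8 lowest in log2 fold change, for the most abundant of each family, for U2AF2 and for members that did not pass. In each list up to 4 genes are named, 2 per direction, by smallest adjusted p among genes averaging 1 CPM or more. Further genes that changed at least 2-fold among the other splicing regulators are named after values were seen, whatever their level. The motifs, the hnRNP subfamilies and other members shown by library were chosen after values were seen.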

Additional observations from a re-analysis of the deposited data

How the results depend on the processing

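Over the 43 tested members and 17 alternative settings, 635 values kept direction and side of the threshold, 56 lost the call in the same direction and 9 gained one. Direction turned in 18 values with a call in one of the fits or both, and in 11 values with a call in neither. All of the 18 came from subtracting the median log2 fold change of the neighbouring genes. That setting gave 0.42 for SRSF10, 0.25 for HNRNPH1, 0.24 for HNRNPAB, 0.23 for HNRNPUL1, 0.15 for HNRNPA3, 0.11 for HNRNPF, 0.056 for HNRNPH2, 0.026 for SF3B2, 0.021 for SF3A3 and 0.0017 for HNRNPA2B1. It gave -0.17 for HNRNPK, -0.13 for SRSF5, -0.10 for SRSF3, -0.091 for HNRNPU, -0.0497 for HNRNPL, -0.038 for SF3B3, -0.023 for HNRNPD and -0.0048 for HNRNPDL. By construction it gives a change relative to the neighbourhood and not another estimate of the level, and its p-values leave out the spread among the neighbours. The log2 ratios of the summed levels became -0.00227 for SRSF, 0.039 for HNRNP and -0.156 for SF3. Scaling to the library total alone, which shifts the median of all genes from 0.01 to 0.06, gave a member median of 0.0303, sums of 0.077, 0.067 and -0.093, 19 higher and 14 lower members, and 77 higher and 54 lower list genes. The sign turned without a call for 5 members (SF3B4, HNRNPUL1, HNRNPUL2, HNRNPF and SRSF7), all of them then above 0. It lost SRSF10, SF3B2, HNRNPA3, HNRNPH1 and SRSF2 and added SRSF5 as higher. A minimum fold of 1.2 left 5 higher and 6 lower members, 27 and 23 list genes, and 3921 and 3805 of all genes. Without a filter on low counts 25797 genes were tested, with the same 18 and 19 counts of members. The replicate block gave 17 higher and 19 lower members, losing SRSF3 (edgeR adjusted p = 0.0565), and changed no other member's call. HNRNPF passed with ribosomal RNA removed, with a filter of 1 CPM in 3 libraries, and with limma-voom. Leaving out 1 library at a time gave 16 to 19 higher and 16 to 20 lower members, and log2 ratios of -0.15 to -0.13 for the SF3 sum, 0.0107 to 0.0369 for the SRSF sum and -0.000498 to 0.0265 for the HNRNP sum, the lowest of both without shCtrl replicate 1. It turned the sign of HNRNPUL2 and SRSF7, neither called, without shPRAME replicate 1, shPRAME replicate 2 or shCtrl replicate 3. Depth limits the 5 untested members, and counts per gene do not separate productive from poison exon transcripts.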
